A study of Mus musculus with 8 samples.

Results

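The multidomain BCL2 family members were 8 genes, *Bcl2*, *Bcl2l1*, *Bcl2l2*, *Mcl1*, *Bcl2l10*, *Bax*, *Bak1* and *Bok*, of 19751 genes named on the array. They were chosen by name, and each probe whose RefSeq accession belongs to one of them was kept apart, which gave 11 probes of 39429. RNA was measured in AtT20 cells, a murine pituitary corticotroph tumor cell line, on Agilent single-colour arrays. Both groups were kept for 48 hr in DMEM with 1% stripped fetal bovine serum, the 4 control samples without agent and the 4 HX630 samples with 10 μM HX630, an agonist of the retinoid X receptors (RXRs). The study asked how this agonist changes gene expression in corticotroph tumor cells. The line stands for 1 tumor, and the labels do not say that the samples of a group came from separate cultures, so the p-values measure the spread between these samples, which may be technical.

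BCL2 family proteins decide whether the outer membrane of the mitochondrion stays closed. BCL2, BCL-XL (from *Bcl2l1*), BCL-W (from *Bcl2l2*), MCL1 and the product of *Bcl2l10* share several BCL2 homology (BH) domains and hold the membrane closed, whereas BAX and BAK, the effectors, form the pores that let cytochrome c out. BOK resembles the effectors in sequence, and BH3-only proteins set the balance between the sides. Only RNA was measured here, and these proteins are also controlled by their stability, their location and their binding to each other.

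Each value below is a log2 signal, which is the processed intensity on the log2 scale relative to its array's 75th percentile, and a log2 fold change is the HX630 mean minus the control mean. Tests were made on probes flagged as well above background in 4 or more of 8 arrays, and a probe was called when its limma p-value, adjusted over all 28548 tested probes, was under 0.01 and its fold change over 1.5. The 75th percentile lay between 1335 and 1863 intensity units in control arrays and between 1803 and 1899 in HX630 arrays, and no member probe was saturated. All control arrays lay on 1 slide and scan and all HX630 arrays on another, so slide and treatment cannot be told apart. All 8 corticotroph markers were well above background on all 8 arrays, with a summed signal, relative to the 75th percentile, of 592 to 732 in control and 435 to 456 with HX630. They did not move together, since *Crhr1* (1.11) and *Neurod1* (0.72) rose, *Pcsk1* (-2.06) and *Scg2* (-1.41) fell, on the scale of log2 fold change, and 4 were not called. Those 4 were all lower, from -0.45 (*Pomc*) to -0.315 (*Pitx1*), so 6 of the 8 were lower with HX630. All 8 had a limma adjusted p under 0.01, as 45.6% of all tested probes did. Of the markers of other cells, *Prl*, *Tshb*, *Lum*, *Pdgfra* and *Cdh5* were above background on no array. Of those tested, each by its brightest probe, *Gh*, *Csf1r* and *Pecam1* were called down, *Dcn* was called up and the others were not called. *Kdr* was the brightest of them, with means of 1.54 in control and 1.18 with HX630. The summed signal was 0.131 to 0.248 in control and 0.157 to 0.179 with HX630 for 5 genes of other pituitary lineages, of which 3 were above background on any array, and 0.0892 to 0.106 and 0.106 to 0.145 for 5 fibroblast genes, of which 3 were. It was 0.893 to 1.04 and 0.591 to 0.7 for the 3 macrophage genes with a probe, all of them detected, and 2.72 to 3.37 and 2.16 to 2.64 for 3 endothelial genes, of which 2 were. The part of these shifts in the results was not tested. The samples were a single cell line, and fewer cells with a marker and less of its RNA per cell cannot be told apart.

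Of the 11 member probes, 9 probes of 7 genes were tested. With HX630, 3 probes of 2 genes rose (*Bok* and both probes of *Bcl2l1*), 1 probe of 1 gene fell (*Bcl2*), and 5 were not called. Among all tested probes 7.46% were called up, 11.2% down and 18.6% in either direction. The groups did not overlap at 8 of the 9 member probes, beside 55.7% of all tested probes. The median log2 fold change of all tested probes was -0.06, and it was 0.17 after scaling to the spike-in control probes, where 4179 probes were called up and 1888 down in place of 2131 and 3184. The median of each array as the scale gave 2830 up and 2657 down.

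**Figure D1:**
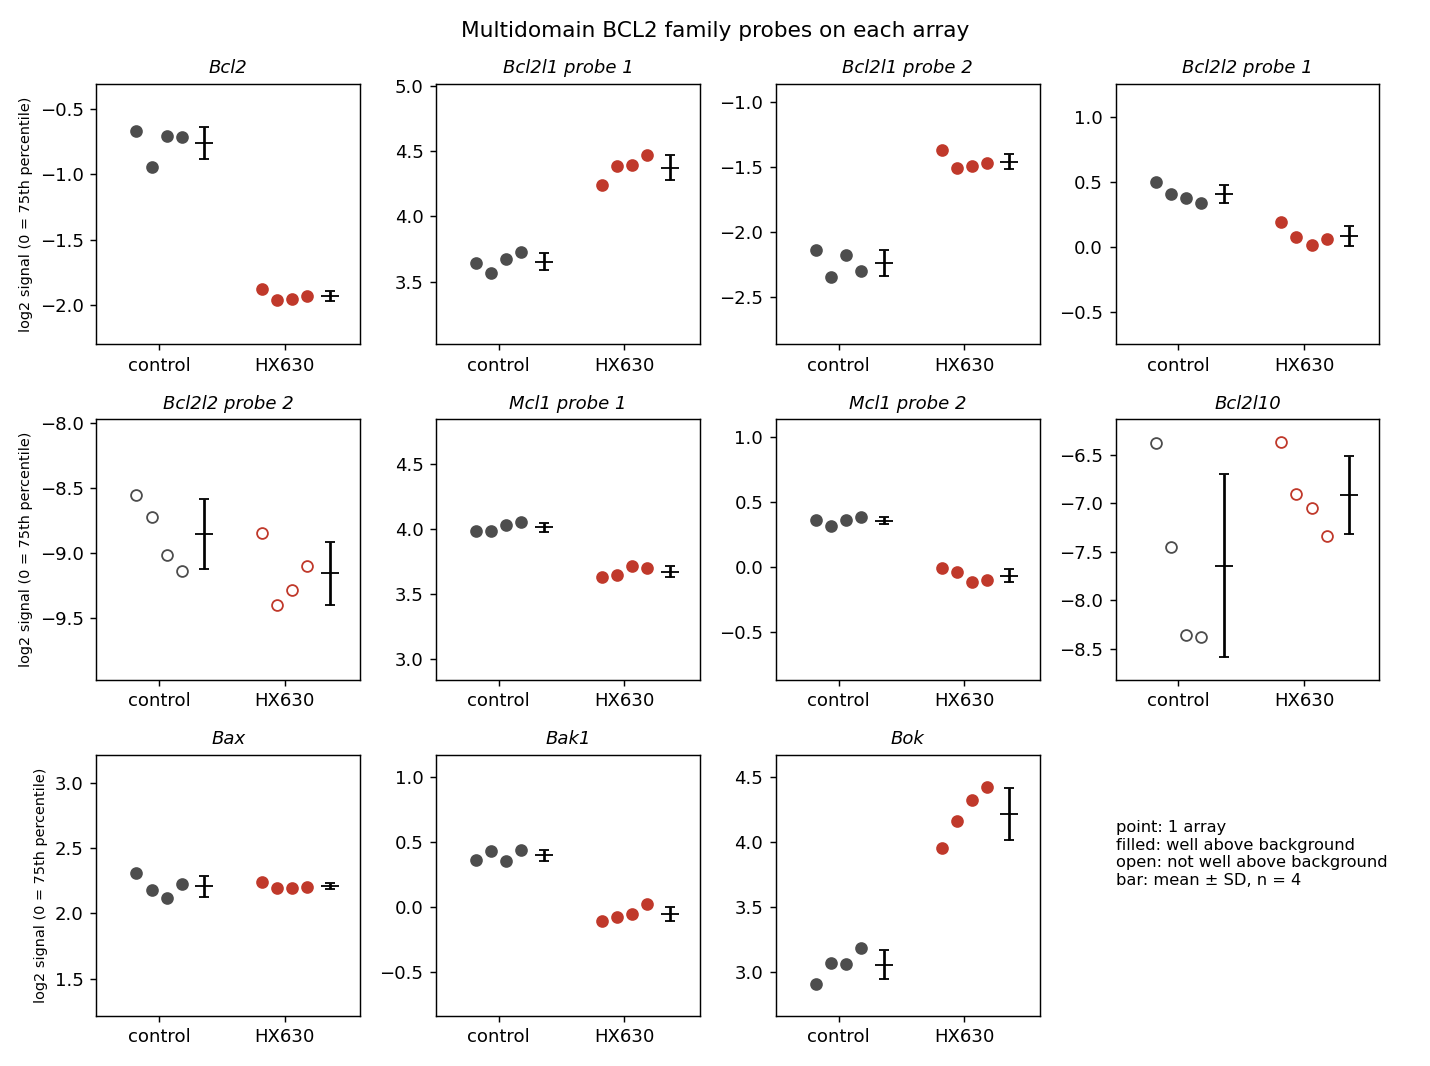
Log2 signal of each member probe (vertical axis, log2 units relative to the 75th percentile of the array) on each of the 4 control and 4 HX630 arrays, 1 panel a probe, with points from left to right by replicate number and bars at the mean ± SD (n = 4). The groups are apart for *Bcl2*, *Bcl2l1* and *Bok* and overlap for *Bax*, and open points were not well above background.

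The upstream sequences of the 3 called genes are shown because RXRs bind DNA as dimers at repeats of the motif AGGTCA. They are the 250 bases before 1 RefSeq start site of each gene (build GRCm38.p6), *Bcl2* at chr1:106714291-106714540 on the minus strand, *Bok* at chr1:93685325-93685574 on the plus strand and *Bcl2l1* at chr2:152828490-152828739 on the minus strand. For *Bcl2l1* this is the most downstream of its 3 listed start sites. Each is written 5′ to 3′ on the strand of the gene, and capitals mark the motif on the opposite strand, TGACCT.
Bcl2: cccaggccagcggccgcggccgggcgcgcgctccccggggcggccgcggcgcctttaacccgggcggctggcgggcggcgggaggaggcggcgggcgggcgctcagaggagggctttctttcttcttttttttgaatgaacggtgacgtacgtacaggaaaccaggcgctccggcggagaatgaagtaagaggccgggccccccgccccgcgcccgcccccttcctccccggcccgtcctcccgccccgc
Bok: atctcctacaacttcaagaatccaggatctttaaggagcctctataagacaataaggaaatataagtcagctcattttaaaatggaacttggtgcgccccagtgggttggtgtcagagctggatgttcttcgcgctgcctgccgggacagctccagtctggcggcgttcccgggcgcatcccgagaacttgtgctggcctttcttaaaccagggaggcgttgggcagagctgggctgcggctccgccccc
Bcl2l1: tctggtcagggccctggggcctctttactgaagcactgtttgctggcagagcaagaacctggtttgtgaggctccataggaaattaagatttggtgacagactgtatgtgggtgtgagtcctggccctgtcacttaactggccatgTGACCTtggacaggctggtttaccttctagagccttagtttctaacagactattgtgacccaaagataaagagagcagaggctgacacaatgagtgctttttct
The motif was searched on both strands over 300 bases that reach 50 bases past the start. It was found in 2 of the 9 promoters listed for 7 of the members. It lay at -104 in the most downstream of 3 *Bcl2l1* promoters, with none in the upstream ones, and at -184 in *Bcl2l2*. It stood in 5340 of all 32851 promoters (16.3%). Direct repeats of it with a spacer of 1 to 5 bases of any kind stood in no member promoter and in 0.00609% to 0.0396% of all promoters, depending on the spacer. Guanine and cytosine made up 76.0% of the *Bcl2* promoter, 56.3% of that of *Bok* and 49.3% of the most downstream of *Bcl2l1*. These are matches of letters, and binding was not measured.

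Among the genes that hold the membrane closed, *Bcl2*, the founding member of the family, fell. Its probe, named by 1 of the 2 RefSeq transcripts of the gene, read -0.67, -0.94, -0.70 and -0.71 in control replicates 1 to 4 and -1.88, -1.96, -1.96 and -1.94 in HX630 replicates 1 to 4. The lowest control array and the highest HX630 array were 0.94 apart, and control replicate 2 was the lowest of its group. The group means were -0.76 ± 0.13 and -1.93 ± 0.04 (SD, n = 4 each). The log2 fold change was -1.18 (SE 0.06, 95% interval -1.32 to -1.03), or 44.3% of control, with a limma adjusted p of 2.68e-06 and a two-sided exact permutation p of 0.0286, the smallest that 4 against 4 arrays can give. Of all tested probes, 3.3% fell by at least as much.

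*Bcl2l1* rose at both of its probes. The first read 3.64, 3.57, 3.67 and 3.73 in control and 4.24, 4.39, 4.39 and 4.47 with HX630, with means of 3.65 ± 0.07 and 4.37 ± 0.10 (SD, n = 4 each). The second read -2.14, -2.35, -2.18 and -2.30 in control and -1.37, -1.51, -1.49 and -1.47 with HX630. At both probes every HX630 array lay above every control array, by at least 0.52 and 0.63. The log2 fold changes were 0.72 (SE 0.06, 95% interval 0.59 to 0.86, limma adjusted p = 2.28e-05) and 0.78 (SE 0.06, 95% interval 0.65 to 0.91, limma adjusted p = 1.39e-05), or 165% and 172% of control. Of all tested probes, 6.06% and 5.24% rose by at least as much. Under normexp background correction the second probe changed by 0.57, under the fold threshold.

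The 2 probes are named by the same accession, so these data do not tell apart the long and short forms that splicing makes from *Bcl2l1*. Their changes differed by 0.06 (two-sided exact permutation p = 0.6). The difference of *Bcl2l1* and *Bcl2* within each array is one that a single scale factor for each array cannot change. It is given as a description, since the pair was chosen with their opposite changes known. The pair was tested only among the 36 pairs of probes below. Relative to the mean of the control arrays, the difference of *Bcl2l1* (first probe) minus *Bcl2* was -0.10, 0.10, -0.03 and 0.03 in control and 1.71, 1.94, 1.94 and 2.00 with HX630. The groups lay far apart, and the change was 1.90, a shift of 3.72-fold in the ratio (SD 0.09 and 0.13, n = 4 each).

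**Figure D2:**
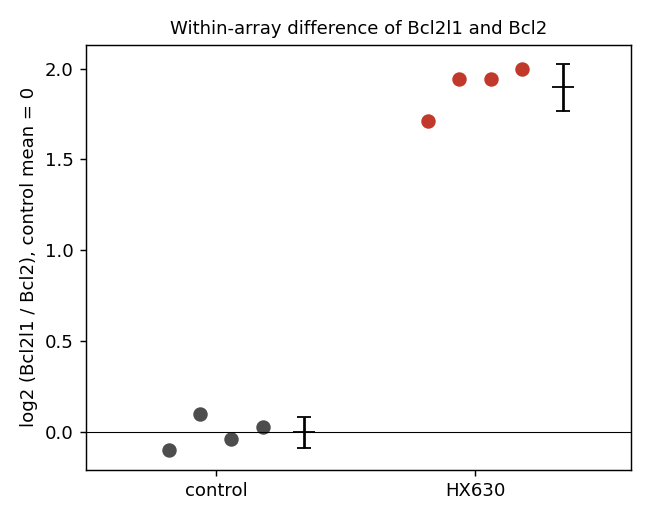
Within-array difference of the log2 signals of *Bcl2l1* and *Bcl2* (vertical axis, log2 units relative to the mean of the control arrays) on the 4 control and 4 HX630 arrays, from left to right by replicate number, with bars at the mean ± SD (n = 4). Control arrays lie between -0.10 and 0.10 and HX630 arrays between 1.71 and 2.00.

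*Mcl1*, whose product is a short-lived guard of the membrane, was lower with HX630 at both probes but under the fold threshold. Its first probe read 3.98, 3.99, 4.03 and 4.05 in control and 3.63, 3.65, 3.71 and 3.70 with HX630. Its second read 0.36, 0.32, 0.36 and 0.38 in control and -0.01, -0.04, -0.12 and -0.10 with HX630. The groups did not overlap at either probe, and the SDs, 0.03 to 0.05, were among the smallest of the members. The log2 fold changes were -0.34 (95% interval -0.42 to -0.26, limma adjusted p = 9.36e-05) and -0.42 (95% interval -0.51 to -0.34, limma adjusted p = 3.52e-05), or 79% and 74.7% of control, and 24.5% and 19.6% of tested probes fell by at least as much. On the spike-in scale they were -0.12 and -0.20.

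*Bcl2l2*, which encodes BCL-W, read 0.50, 0.41, 0.38 and 0.34 in control and 0.19, 0.07, 0.01 and 0.06 with HX630 at its brighter probe. The groups were 0.14 apart, the narrowest gap of the member probes whose groups did not overlap. The log2 fold change was -0.32 (SE 0.05, 95% interval -0.45 to -0.20, limma adjusted p = 0.00123), or 80% of control, and it was -0.10 on the spike-in scale. Its other probe and the probe of *Bcl2l10* were not well above background on any array, so neither was tested. *Bcl2l10*, a divergent member that guards the membrane, read -6.38, -7.46, -8.36 and -8.38 in control and -6.37, -6.91, -7.05 and -7.34 with HX630, which are bounds rather than levels.

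Of the effectors, *Bax* was not called. It read 2.31, 2.18, 2.12 and 2.22 in control and 2.25, 2.19, 2.20 and 2.20 with HX630, and the groups overlapped. The log2 fold change was 0.00 (SE 0.05, limma adjusted p = 0.978), with a 95% interval of -0.11 to 0.11, and it depended on the setting. It was -0.07 under normexp and 0.22 on the spike-in scale, where the limma adjusted p was 0.0063, at a fold under the threshold. *Bak1*, whose product is the other effector held in the outer membrane, read 0.36, 0.43, 0.35 and 0.44 in control and -0.11, -0.08, -0.06 and 0.02 with HX630. All HX630 arrays lay at least 0.33 below the control arrays. The log2 fold change was -0.45 (SE 0.04, 95% interval -0.55 to -0.36, limma adjusted p = 4.36e-05), or 73.2% of control, under the fold threshold, and it was -0.23 on the spike-in scale.

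*Bok*, the effector-like member, had the highest log2 fold change of the members. It read 2.91, 3.07, 3.06 and 3.18 in control and 3.95, 4.16, 4.32 and 4.42 with HX630. The means were 3.06 ± 0.11 and 4.21 ± 0.20 (SD, n = 4 each). The groups were 0.77 apart, and the HX630 SD, 0.20 (n = 4), was the widest of any tested member probe. The log2 fold change was 1.16 (SE 0.11, 95% interval 0.91 to 1.40, limma adjusted p = 4.6e-05), or 223% of control, and 1.93% of tested probes rose by at least as much.

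**Figure D3:**
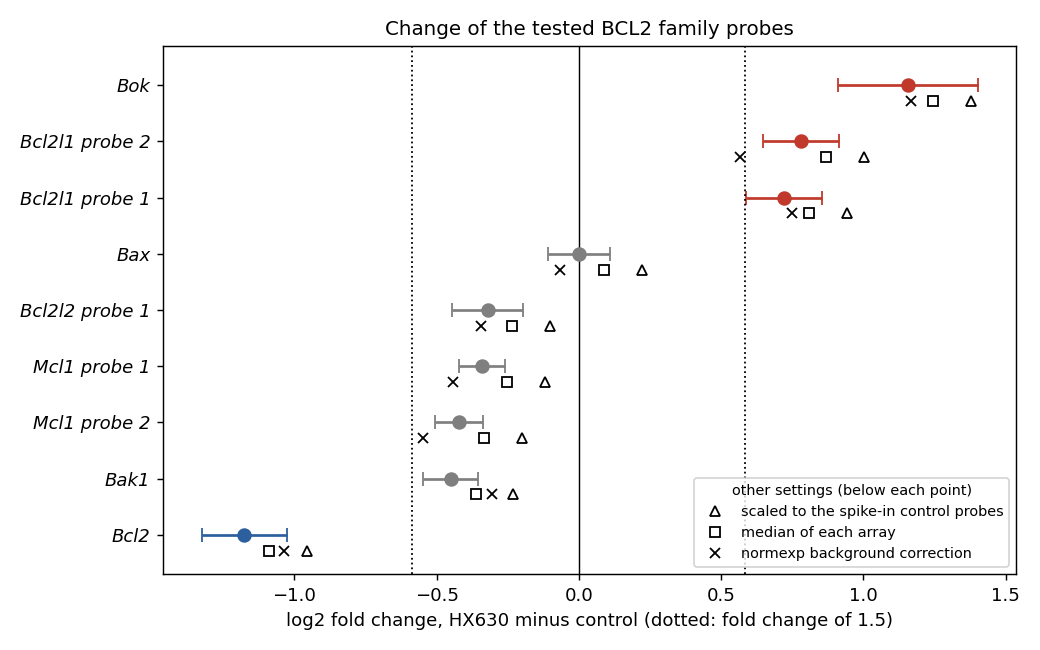
Log2 fold change of HX630 over control (horizontal axis, log2 units) for the 9 tested member probes, with 95% intervals as bars, the fold threshold as dotted lines and small marks below each point for the spike-in scale (triangles), the median of each array (squares) and normexp (crosses). Red was called up, blue down and grey not called. *Bok* and *Bcl2l1* lie right of the threshold, *Bcl2* left of it, and *Bax* at 0.00.

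Differences between the changes were tested within arrays over 36 pairs of probes, with Benjamini-Hochberg adjustment over the pairs, and 28 had an adjusted p under 0.05. Each of these 28 had an exact permutation p of 0.0286, the smallest possible, and an adjusted p of 0.0367. The share among pairs of other probes was not computed. The changes ran from *Bok* down through *Bcl2l1*, *Bax*, *Bcl2l2*, *Mcl1* and *Bak1* to *Bcl2*. This order came from the same values, so the neighbouring pairs are given as a description. Of the 8 neighbouring pairs, 3 were among the 28. *Bcl2l1* (first probe) stood 0.72 above *Bax*, *Bax* 0.32 above *Bcl2l2*, and *Bak1* 0.72 above *Bcl2*. *Bok* stood 0.38 above the second probe of *Bcl2l1* (exact permutation p = 0.0857) and 0.435 above its first (exact permutation p = 0.0286). The changes of *Bcl2l2*, *Mcl1* and *Bak1* lay within 0.13 of each other, and no pair of neighbours among them was separated.

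The genes with profiles most like each called member are given as a description, by the root mean square difference over the 8 arrays after the control mean of each probe was subtracted, among 20028 tested probes with a symbol (20027 for *Bcl2l1*). They were *Kcna7* (0.0294 log2 units) and *Irs1* (0.0326) for *Bcl2*, *Lrrc4b* (0.0341) and *Senp1* (0.0383) for *Bcl2l1*, and *Btg1c* (0.0642) and *Svop* (0.0945) for *Bok*.

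The rest of the pathway was read through 3 lists, each gene by its brightest probe. BH3-only genes, which encode the proteins that antagonise the guards or activate the effectors, gave no call among the 7 of 8 genes tested by limma or by the methods' t-test, although all 7 had an unadjusted p under 0.05. All 7 also had a limma adjusted p under 0.01, as 45.6% of all tested probes did, at folds under the threshold, and 1 was called up on the spike-in scale. Their log2 fold changes ran from -0.42 (*Bik*) to 0.40 (*Bmf*), with 5 above 0, and a median of 0.23, beside -0.06 over all tested probes. *Pmaip1*, which encodes NOXA, was not tested. Of 6 tested among 10 other BCL2-related genes, 1 rose and 2 fell, with a median of 0.16. *Bnip3*, whose product works at mitochondria in hypoxia and mitophagy, fell to 16.6% of control (log2 fold change -2.59, SE 0.06, limma adjusted p = 1.22e-07). Its relative *Bnip3l* fell to 57.1% (limma adjusted p = 8.11e-06). *Bcl2l14* rose 1.82-fold at its brightest probe (limma adjusted p = 0.000156), but its other probe gave 0.36 (limma adjusted p = 0.223), and the call was lost under normexp.

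Of 15 partners and regulators of the members, 8 had a limma adjusted p under 0.01, beside 45.6% of all tested probes. None of the 15 was called at its brightest probe by limma or by the methods' t-test, with a range of -0.35 to 0.55 and a median of 0.09. The highest of these was *Bag1*, an adaptor first found as a partner of BCL2, named after its values were seen, and its other probe was called up at 0.65 (limma adjusted p = 4.78e-06). In this list 1 gene was called up under quantile normalization, the median of each array or normexp, and 2 on the spike-in scale.

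**Figure D4:**
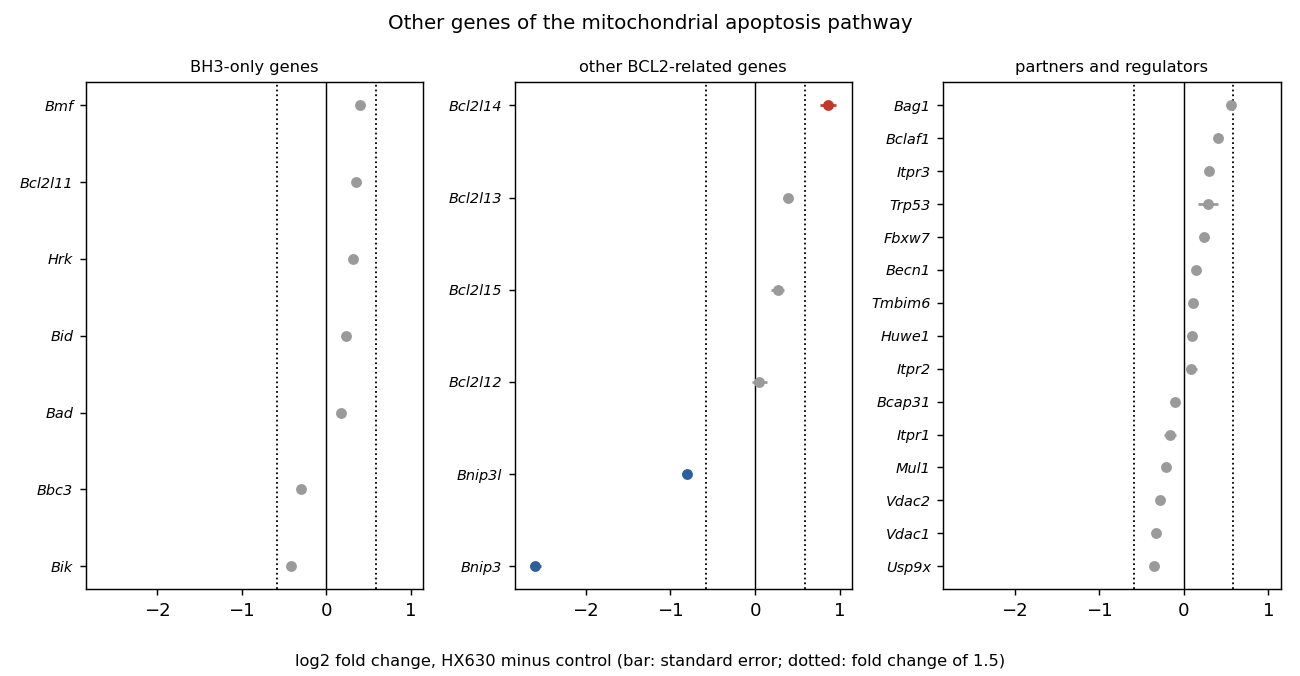
Log2 fold change of HX630 over control (horizontal axis, log2 units) for each tested gene of the 3 pathway lists, 1 panel a list and 1 point a gene, with standard errors as bars (mostly hidden by the points) and the fold threshold as dotted lines. Red was called up, blue down and grey not called. BH3-only genes lie between -0.42 and 0.40, and *Bnip3* is the lowest point at -2.59.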

How the data were processed

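Total RNA of 4 control and 4 HX630 samples was hybridised to single-colour arrays (44397 spots, 1377 of them control spots), read with Agilent Feature Extraction 10.7.3.1. The deposited files hold processed signal intensity, background-corrected by the authors' scanner software, with flags for spots above background. The authors also deposited a log2 table, which equals the log2 of the same intensity minus the 75th percentile of its array. Here outlier spots were left out, spots of a probe averaged, log2 taken and the 75th percentile subtracted. Probes were named by RefSeq accession (26055 of 39429 matched), since the array design is older than the GRCm38.p6 table, which served for names and promoters.

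Probes well above background on at least 4 arrays were tested with limma 3.58.1 (lmFit and eBayes, R 4.3.3) and Benjamini-Hochberg adjustment. The number of arrays limits the precision. Single values had a two-sided exact permutation test over 70 regroupings. Normexp (offset 16) used the median signals. The list of genes downstream of the outer membrane is not reported here. Scripts were tested on simulated data. The members and lists were chosen with earlier results of these data known. Named were all member probes, up to 3 called genes of largest change in each list reported, and the 2 nearest profiles of each called member. Also named were cell type markers, the ends of the BH3-only range (*Bik* and *Bmf*), the untested *Pmaip1*, and *Bag1* after its values were seen.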

Additional observations from a re-analysis of the deposited data

Results flagged for a closer look

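*Bcl2* in control had 1 array apart from the others. Control replicate 2 read -0.94, while the other control arrays averaged -0.70, and its gap to the nearest array was 0.831 of the range of the group. Without that array the log2 fold change of *Bcl2* was -1.24. Of 46 groups of 4 arrays examined this was the only 1 apart, and chance gives about 2.3.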

How the results depend on the processing

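Over 216 values from 9 member probes and 24 alternatives, 207 kept their direction and their side of the threshold. Called up were 4179 probes when scaled to the spike-in control probes, 1355 under normexp and 5763 with no fold threshold, in place of 2131. Called down were 1888 with spike-in scaling and 7245 with no fold threshold, in place of 3184, and the latter called 5 member probes down. Over all alternatives the log2 fold change ran from -1.24 to -0.96 for *Bcl2*, from 0.69 to 0.94 and from 0.57 to 1.00 for the probes of *Bcl2l1*, and from 1.09 to 1.38 for *Bok*. *Bcl2l1* at its second probe was not called under normexp (0.57). *Bax* turned to -0.066 under normexp and ran from -0.029 to 0.037 when each array was left out in turn, and the spike-in scale gave 0.22 (limma adjusted p = 0.0063). On that scale *Mcl1* (first probe) and *Bcl2l2* were at -0.12 and -0.10, with limma adjusted p of 0.123 and 0.131. *Mcl1* (second probe) and *Bak1* were at -0.20 and -0.23 there, with limma adjusted p of 0.0131 and 0.0169, also over 0.01. The cause was not tested.

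Whether replicate numbers pair the samples was not settled: correlations of same-numbered arrays were 0.60, -0.02, 0.31 and 0.47, and replicates 1 and 4 correlated best with their own number. In both groups the replicate number was also the position on the slide, so pairing and position cannot be told apart. With the replicate block 2209 probes were called up and 3345 down, and the same count of members. The within-array difference of *Bcl2l1* and *Bcl2* was 1.90 with the replicate block too. The slide as a block was not run, since each slide held 1 group. Probes not above background have only a bound.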
